A study of Arabidopsis thaliana with 12 samples.

Results

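The genes described here are those whose transcripts were more abundant in Arabidopsis thaliana roots at pH 4.5 than at pH 6 at both times sampled, 1 h and 8 h. Of 22746 probe sets on the array that are not array controls, 145 met the selection. A log2 difference, pH 6 minus pH 4.5, of group means after adding 4 had to be -0.8 or lower at 1 h and at 8 h. The highest group mean had to reach 20, and at each time the 3 arrays at pH 4.5 all had to lie above the 3 at pH 6. Of the 152 probe sets kept by these conditions, 7 were left out because their gene symbols mark them as calmodulin-like, expansin or expansin-like, xyloglucan-modifying, glycosyltransferase or cytochrome P450 genes. This went by symbol alone. Members of these families may remain among the 67 genes known here only by a locus code and the probe sets listed under no gene. The genes were thus selected on their signals in both pH comparisons, and their pH differences are given below as a description with no test. Of the 145 probe sets, 79 name a single gene, 1 names several genes and 65 are listed under no gene in the annotation used here. No gene had more than 1 probe set among those naming a single gene.

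Roots exchange protons with their medium, and the acidity of the cell wall space affects wall loosening, proton-coupled transport and the solubility of metals such as iron and manganese. Calcium ions serve as a second messenger in root responses to acidity, salt, touch and microbes, and proteins with EF-hand domains bind them. Proteins with a TIR domain, as well as lectins, thaumatin-like proteins and peroxidases, are best known from plant immunity, and tau-class glutathione transferases conjugate glutathione to reactive compounds.

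Total RNA from roots of wild-type Col-0 plants, whose stage is labelled 3.90 weeks, was hybridised to Affymetrix ATH1 arrays, 1 for each of the 12 samples. The plants germinated on 0.7% agarose and grew in non-sterile hydroponic culture at 23 °C. The 4 groups of 3 arrays were pH 4.5 at 1 h, pH 6 at 1 h, pH 4.5 at 8 h and pH 6 at 8 h. All groups shared genotype and nutrient solution, whose phosphate stock is labelled pH 5.6. Since no untreated roots are among the samples, a difference between pH 4.5 and pH 6 does not show at which pH a transcript moved. It is not stated if the 3 replicates were independent cultures, and p-values then measure the spread of these samples alone, which may be technical. Values are array signals, a linear measure of probe brightness in which a signal near 10.4 or lower counts as low here. Levels of different probe sets cannot be compared with each other. Because whole roots were measured, fewer cells of a type and less RNA per cell cannot be told apart.

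All arrays had a trimmed mean (extremes left out) of 100, a common scale that leaves array medians, between 38.2 and 40.2, little room to differ. The log2 correlations over probe sets were 0.976 to 0.989 within groups and 0.921 to 0.967 between groups, so no array stood apart from its group. The ratio of 3′ to 5′ signal, a sign of RNA quality, moved with pH at 1 h for actin, with 18.2 to 21.1 at pH 4.5 and 9.998 to 17.0 at pH 6, and overlapped at 8 h, with 15.3 to 20.8 and 14.4 to 19.9. That of GAPDH averaged 1.37 ± 0.111 at pH 4.5 and 1.11 ± 0.169 at pH 6 at 1 h, and 1.44 ± 0.0546 and 1.30 ± 0.192 at 8 h (SD, n = 3). For ubiquitin it ranged from 2.02 to 3.09 over all arrays. Of 14 root markers, 2 had a named probe set. PYK10, an abundant beta-glucosidase of roots, had group means of 2944 to 4061. EXPA7, an expansin of root hair cells, had 101 ± 18.4 at pH 4.5 and 132 ± 25.8 at pH 6 at 1 h, and 67.8 ± 11.9 and 135 ± 8.41 at 8 h. EXPA7 was thus lower at pH 4.5 at 8 h, with a log2 difference, pH 6 minus pH 4.5, of 0.96 ± 0.15 (SE, limma adjusted p = 0.000105), and fell with time at pH 4.5 (-0.55 ± 0.15, SE, limma adjusted p = 0.0145). PYK10 rose with time at pH 6 (0.45 ± 0.12, SE, limma adjusted p = 0.0164). The part of these markers and ratios in the differences of the selected genes was not tested. Of 9 markers of green shoot tissue, 3 had a named probe set, RCA, LHCB4.1 and PSAN. Their summed signal was 116 to 181 at pH 4.5 and 156 to 185 at pH 6 at 1 h, and 59.7 to 75.7 and 67.9 to 97.6 at 8 h. The sum hides that they differed in direction at 8 h. PSAN was lower at pH 6, with a log2 difference of -1.11 ± 0.36 (SE, limma adjusted p = 0.0261). Its pH 6 signal at 8 h was low and spread widely, 6.11 ± 7.76 against 14.1 ± 2.87 at pH 4.5 (SD, n = 3). RCA (0.37) and LHCB4.1 (0.45) lay higher at pH 6 without a call.

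The selected probe sets had signals well above the median of the array at pH 4.5 and close to it at pH 6. The median of their group means was 146 at pH 4.5 and 49.4 at pH 6 at 1 h, and 138 and 31.9 at 8 h. Over all probe sets, the same medians were between 38.4 and 40.1. The log2 difference at 1 h ranged from -5.55 to -0.81 with a median of -1.21, and that at 8 h from -6.26 to -0.80 with a median of -1.61. The medians over all probe sets were 0.05 and 0.03. The larger of both differences was the one at 8 h for 103 probe sets and the one at 1 h for 42. A difference of -2 or lower was seen for 17 probe sets at 1 h and for 49 at 8 h. Of these, 6 had it at both times. In the fit described below, 139 of the 142 probe sets tested were called lower at pH 6 at 1 h and 142 at 8 h, where 5.51% and 13.2% of all probe sets tested were called lower. As the selection used these contrasts, the counts say nothing further.

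**Figure D1:**
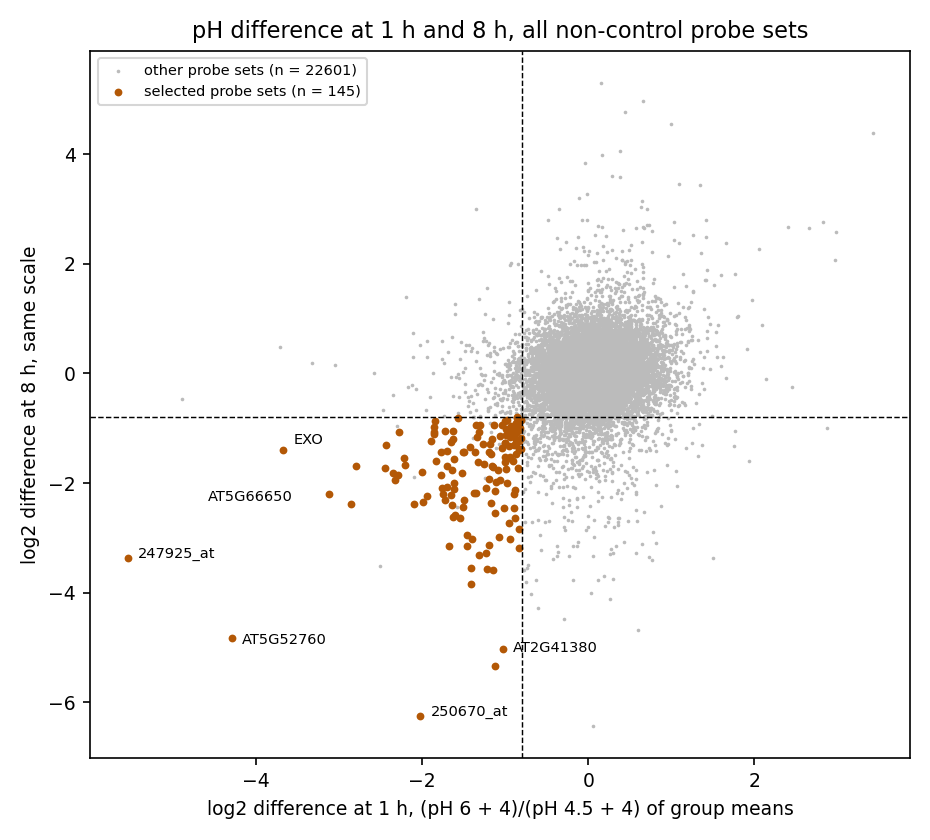
Log2 difference between pH 6 and pH 4.5 at 1 h (horizontal axis) and at 8 h (vertical axis), computed from group means after adding 4, for every probe set that is not an array control. Orange points are the 145 selected probe sets, grey points all others, and dashed lines mark the selection at -0.8; the points spread along both axes, with EXO and AT5G66650 far to the left and AT2G41380 far down.

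Membership was a matter of degree at the edge. The 3 probe sets just inside the selection had -0.80, -0.80 and -0.81 as the weaker of their differences, and the 3 just outside had -0.80, -0.80 and -0.79. All 6 are listed under no gene.

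The comparison between 1 h and 8 h within each pH was not part of the selection, although the selection read the same arrays. It asks how the signal at each pH moved between 1 h and 8 h, which is not the same as how the excess at pH 4.5 moved. Differences were tested with limma on log2(signal + 3.92) over 15922 probe sets, with p-values adjusted over all of them by the Benjamini-Hochberg method and called at 0.05. Of the 145, 142 passed the filter on low signals. AT1G72920 and 2 probe sets without a gene name did not pass it.

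At pH 4.5 the selected probe sets went both ways with time. From 1 h to 8 h, 48 of the 142 fell (33.8%, against 11.1% of all probe sets tested), 34 rose (23.9%, against 12.5%) and 60 were not called. Their differences ranged from -2.51 to 3.30 with a median of -0.08, against 0.02 over all probe sets. At pH 6 the calls went mostly one way, with 73 lower at 8 h (51.4%, against 10.6%), 3 higher (2.11%, against 8.86%) and 66 not called. The median difference at pH 6 was -0.46, against 0.01 over all probe sets, and 116 of the 142 lay below 0. In the group means, 117 of the 145 had their lowest value at pH 6 after 8 h and 28 at pH 6 after 1 h. The highest value was at pH 4.5 after 1 h for 78 and at pH 4.5 after 8 h for 67. The selection required pH 6 to lie below pH 4.5 at each time. The lowest mean could therefore only be at pH 6 and the highest only at pH 4.5. Whether the split of these counts between 1 h and 8 h departs from that of all probe sets was not tested.

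The 48 probe sets that fell at pH 4.5 had a median signal of 292 ± 31.5 (SD over 3 arrays) at 1 h and 144 ± 8.11 at 8 h, and of 88.7 ± 2.68 and 56.9 ± 2.84 at pH 6. The 34 that rose had 91.0 ± 2.78 at 1 h and 254 ± 18.3 at 8 h, and 38.98 ± 5.06 and 24.9 ± 2.76 at pH 6. The 60 without a call had 101 ± 2.73 and 103 ± 1.03 at pH 4.5, and 36.6 ± 3.16 and 27.8 ± 2.59 at pH 6. These classes were formed from the pH 4.5 calls, so their pH 4.5 medians are a description. Of the classes combined, 35 of the 142 were lower at 8 h at both pH values (24.6%, against 3.39% of all probe sets tested) and 15 were higher at 8 h at pH 4.5 and lower at pH 6 (10.6%, against 1.67%). In limma 0 were lower at pH 4.5 and higher at pH 6 (against 1.12%), and 1 was at an unadjusted p under 0.05. Of the 15, 14 had arrays that did not overlap between the times at either pH (9.86%, against 1.58% of all probe sets tested), and 0 did so in the opposite directions (against 1.07%). A further 17 were higher at pH 4.5 with no call at pH 6 (12.0%, against 7.98%), and 13 were lower at pH 4.5 with no call at pH 6 (9.15%, against 6.58%). At pH 6 only, 23 were lower (16.2%, against 5.51%) and 1 was higher (0.704%, against 4.85%). At both pH values 2 were higher (1.41%, against 2.89%), and 36 were called at neither (25.4%, against 66.0%). The selection required a pH difference at each time on these arrays, so its part in these shares cannot be told apart. The 3 shoot markers were also lower at 8 h than at 1 h at both pH values, each past the threshold, and their part in the time differences of the selected genes was not tested.

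**Figure D2:**
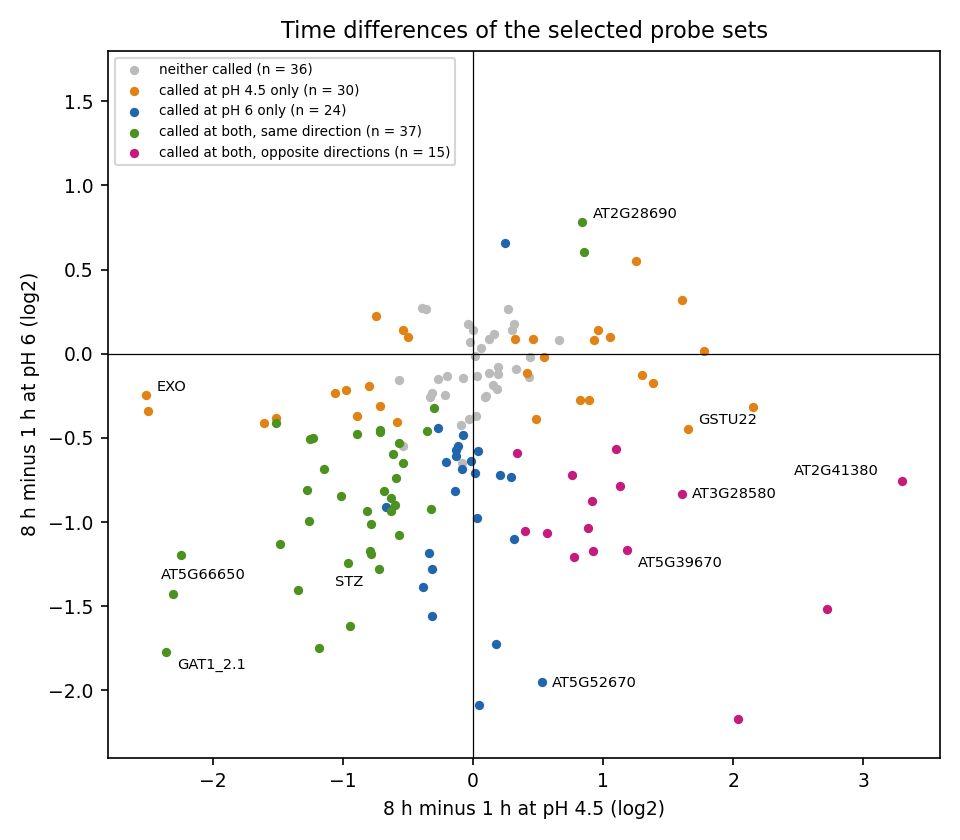
Log2 difference between 8 h and 1 h at pH 4.5 (horizontal axis) and at pH 6 (vertical axis) for the 142 selected probe sets tested, coloured by whether limma called them at one pH, at both or at neither. Points spread to both sides along the horizontal axis, while 116 lie below 0 on the vertical axis. The 15 called in opposite directions lie in the lower right quadrant, among other points that were not.

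**Figure D3:**
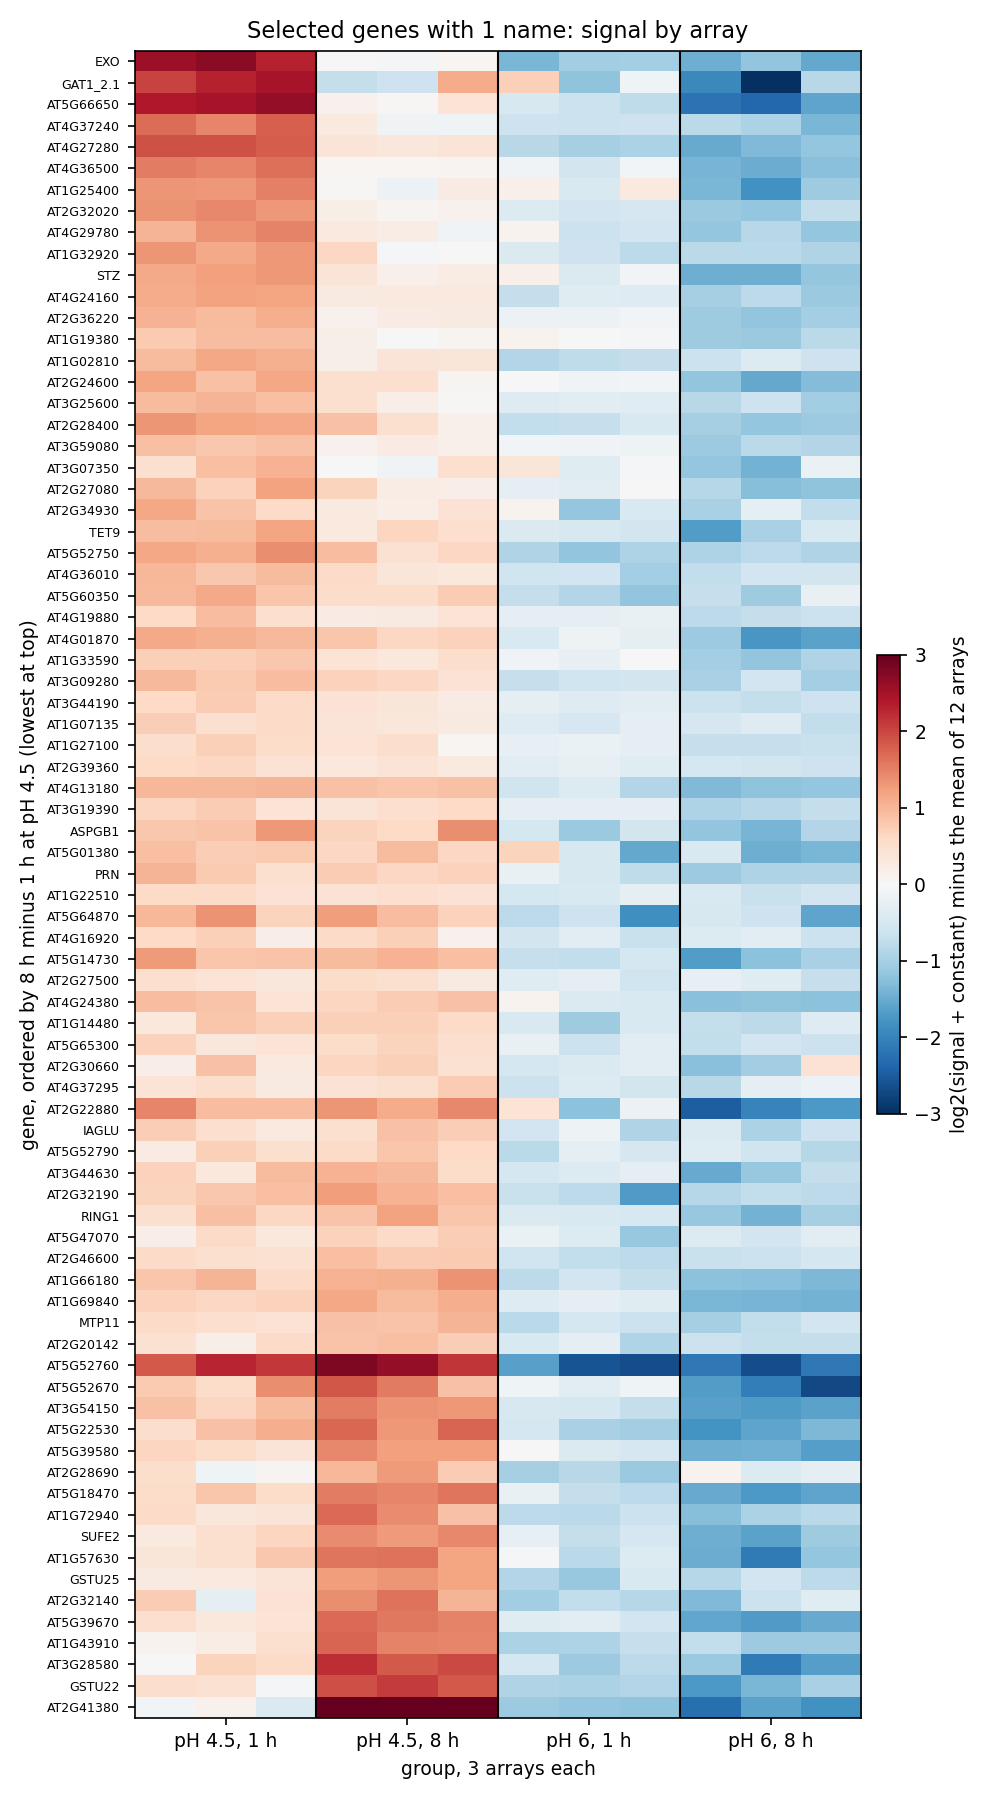
Signal of the 78 tested probe sets that name a single gene (vertical axis, 1 line per gene, ordered from the lowest to the highest time difference at pH 4.5) on each of the 12 arrays (horizontal axis, 3 per group). Colour is log2(signal + 3.92) minus the mean of the 12 arrays, red above and blue below it and saturated at 3 in either direction; genes at the top are darkest red at pH 4.5 after 1 h, and genes at the bottom at pH 4.5 after 8 h.

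For the genes below, roles are background knowledge and were grouped after the values were known. A role group was assigned to 55 of the 79 genes, in 13 groups, and 24 were left without one. In these groups every count of 0 given below was also 0 at an unadjusted p under 0.05 in limma, other than that of cell wall genes higher at 8 h at pH 6, which was 1. For comparison, 23.9% of the 142 selected probe sets tested rose and 33.8% fell at pH 4.5. At pH 6, 2.11% rose and 51.4% fell. Over all probe sets tested the shares were 12.5% and 11.1% at pH 4.5, and 8.86% and 10.6% at pH 6. The pH difference, which the selection used, was larger at 8 h for 103 of the 145. Whether any role group departs from these shares was not tested.

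Calcium-related genes included several with large early differences. All 5 such genes were tested. At pH 4.5, 3 fell and 2 rose between 1 h and 8 h, and at pH 6, 4 fell and 0 rose. AT5G66650, of the calcium uniporter family best known from mitochondria, had signals of 346, 362 and 406 at pH 4.5 and 44.0, 38.3 and 35.1 at pH 6 at 1 h, and at 8 h of 68.5, 63.6 and 84.6 at pH 4.5 and 10.4, 8.97 and 18.2 at pH 6. Its arrays formed 4 separate levels, highest at pH 4.5 after 1 h and lowest at pH 6 after 8 h. It fell with time at both pH values, with log2 differences of -2.31 ± 0.17 (SE, adjusted p = 1.16e-08) at pH 4.5 and -1.43 ± 0.17 (SE, adjusted p = 1.08e-05) at pH 6.

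AT4G27280, which encodes an EF-hand protein, had signals of 1273, 1270.5 and 1195 at pH 4.5 and 187, 166 and 173 at pH 6 at 1 h. At 8 h its arrays read 441, 422 and 437 at pH 4.5 and 114, 131 and 148 at pH 6. The excess at pH 4.5 was thus 6.97-fold at 1 h and 3.23-fold at 8 h on the scale of the selection, and its log2 difference with time at pH 4.5 was -1.52 ± 0.10 (SE, adjusted p = 1.39e-09). AT3G25600, another EF-hand gene, followed the same order with smaller steps and fell with log2 differences of -0.71 ± 0.12 (SE, adjusted p = 0.000132) at pH 4.5 and -0.47 ± 0.12 (SE, adjusted p = 0.00767) at pH 6.

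AT5G39670, also an EF-hand gene, had the opposite course at pH 4.5. Its signals at 1 h were 199.5, 174 and 186 at pH 4.5 and 106, 110.1 and 92.4 at pH 6, and at 8 h they were 462, 426 and 399.6 at pH 4.5 and 44.4, 40.3 and 46.1 at pH 6. All arrays of the groups were separate, the pH 4.5 signal at 8 h lying above and the pH 6 signal at 8 h below every 1 h array. The log2 difference with time was 1.19 ± 0.10 (SE, adjusted p = 9.76e-08) at pH 4.5 and -1.17 ± 0.10 (SE, adjusted p = 3.6e-07) at pH 6. AT2G46600, the remaining EF-hand gene, had a high signal in every group, 772 ± 35.0 and 967 ± 48.2 at pH 4.5 and 335 ± 22.9 and 356 ± 18.0 at pH 6 (mean ± SD, n = 3, 1 h before 8 h). Its rise at pH 4.5, which was a log2 difference of 0.32 ± 0.09 (SE, adjusted p = 0.00915), was not called without replicate 1 of pH 4.5 at 8 h, where it was 0.28.

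**Figure D4:**
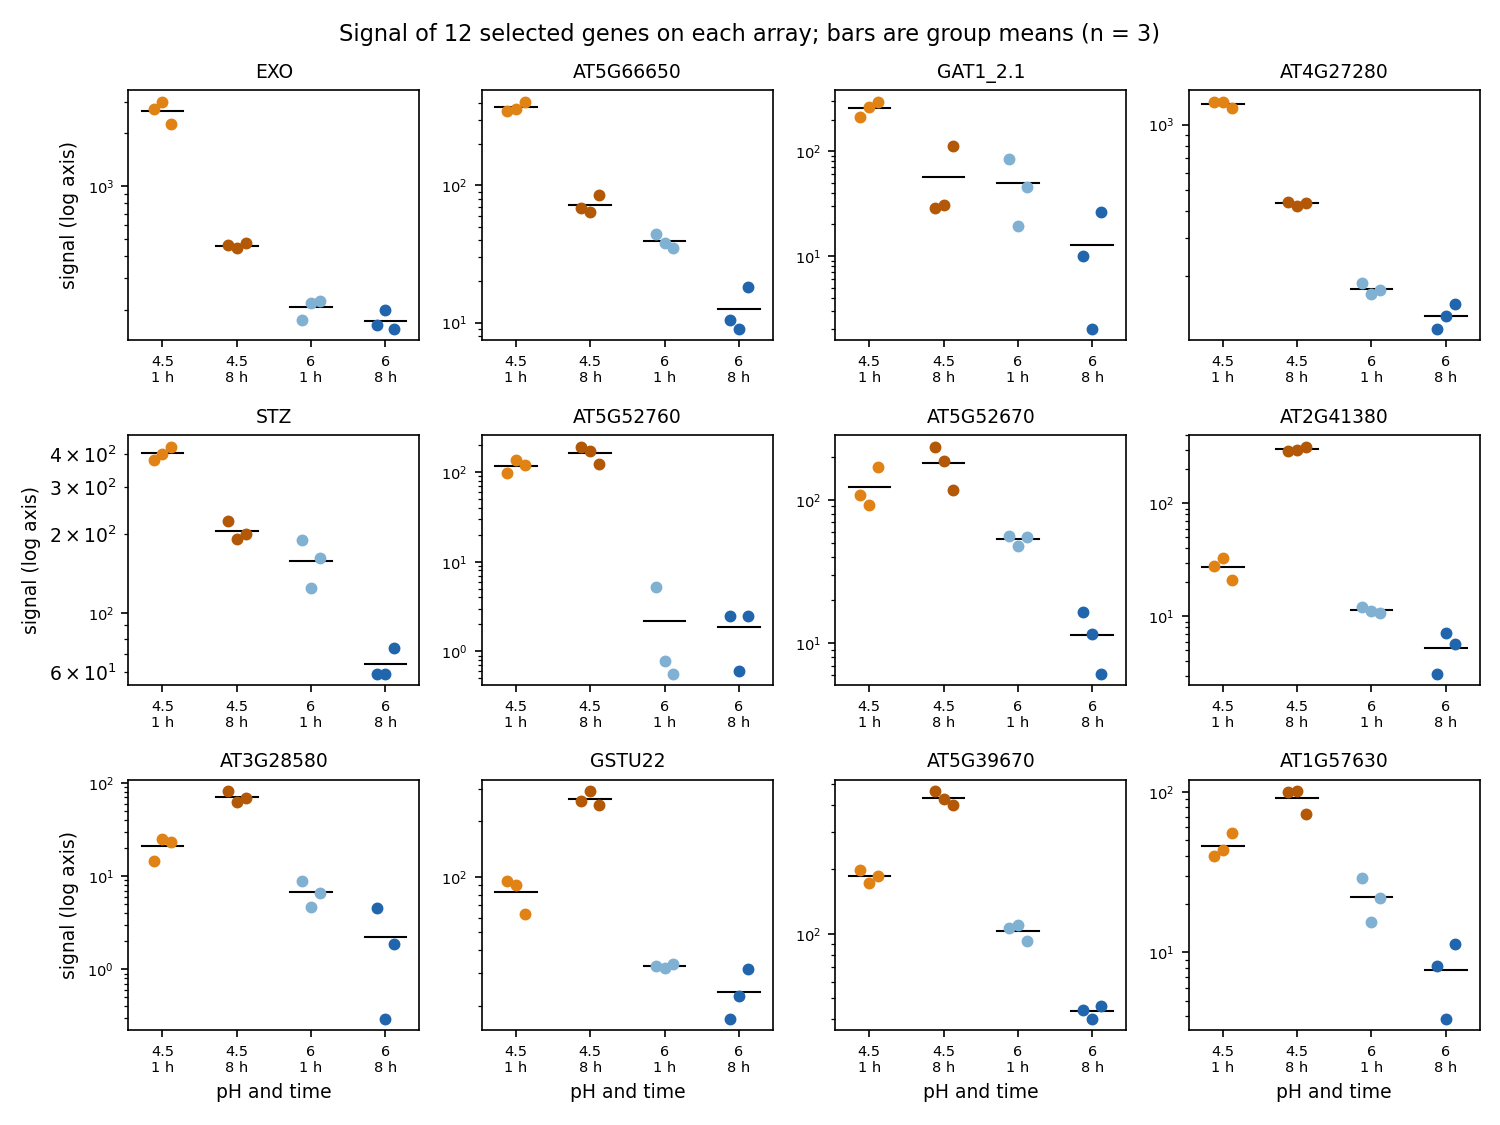
Signal on each of the 12 arrays (vertical log axis, scaled separately per gene) for 12 selected genes, with groups along the horizontal axis as pH and time, 1 point per array, and a bar at each group mean (n = 3). EXO, AT5G66650, GAT1_2.1, AT4G27280 and STZ are highest at pH 4.5 after 1 h, whereas AT2G41380, AT3G28580, GSTU22, AT5G39670 and AT1G57630 are highest at pH 4.5 after 8 h.

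Of 3 cell wall and growth genes, 2 fell with time at pH 4.5 and 0 were called at pH 6. EXO (AT4G08950), the EXORDIUM gene that brassinosteroids induce and that promotes cell expansion, had signals of 2725, 3006 and 2262 at pH 4.5 and 174, 219 and 224 at pH 6 at 1 h, and at 8 h of 463, 446 and 474 at pH 4.5 and 164, 199 and 155 at pH 6. The pH 4.5 arrays lay above all pH 6 arrays at both times, but most of the early excess was gone by 8 h, when it was 2.63-fold after 12.7-fold at 1 h. Its fall at pH 4.5 had a log2 difference of -2.51 ± 0.12 (SE, adjusted p = 3.8e-11), the largest fall of any selected gene that has a name. At pH 6 its difference was -0.25 ± 0.12 (SE, adjusted p = 0.167). AT1G02810, a pectin methylesterase, an enzyme that removes methyl groups from wall pectin, went from 478 ± 35.7 to 283 ± 21.4 at pH 4.5, which was a log2 difference of -0.75 ± 0.10 (SE, adjusted p = 1.71e-05), and had 130.2 ± 7.58 and 153 ± 14.5 at pH 6. AT2G27500, of a glycosyl hydrolase family that includes beta-glucanases, had 136 ± 7.78 at 1 h and 138 ± 14.7 at 8 h at pH 4.5, against 74.6 ± 8.62 and 74.2 ± 12.3 at pH 6. Its excess was small and about equal at both times, at 1.78-fold and 1.82-fold.

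TIR-domain genes were all of low to moderate signal and their excess was larger at 8 h for 6 of 7. Of the 6 tested, 3 rose and 0 fell with time at pH 4.5, and at pH 6, 2 fell and 0 rose. AT1G57630 had signals of 39.98, 43.5 and 55.3 at pH 4.5 and 28.9, 15.5 and 21.9 at pH 6 at 1 h, and at 8 h of 99.7, 101 and 73.2 at pH 4.5 and 8.17, 3.87 and 11.3 at pH 6. The arrays of each group were apart from the others, the difference with time being 0.92 ± 0.24 (SE, adjusted p = 0.00769) at pH 4.5 and -1.17 ± 0.24 (SE, adjusted p = 0.00172) at pH 6. The latter was -0.68 with a constant of 16. AT1G72940 rose at pH 4.5 from 31.9 ± 3.27 to 64.3 ± 18.6, with a log2 difference of 0.89 ± 0.21 (SE, adjusted p = 0.00367), and had 11.9 ± 1.05 and 9.26 ± 2.05 at pH 6.

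AT2G32140 was called higher at 8 h at pH 4.5, with a log2 difference of 1.05 ± 0.29 (SE, adjusted p = 0.0119) and arrays of 26.8, 11.1 and 20.7 at 1 h and 44.2, 52.8 and 33.2 at 8 h. This call was lost without replicate 2 of pH 4.5 at 1 h or at 8 h, the lowest value being 0.76. AT3G44630 was called lower at 8 h at pH 6, with a log2 difference of -0.72 ± 0.22 (SE, adjusted p = 0.0301), from 16.7 ± 1.87 to 8.90 ± 3.52, the latter a low signal. It lost its call without replicate 2 or 3 of pH 6 at 1 h or replicate 1 or 2 of pH 6 at 8 h, with -0.52 as the smallest difference. It also lost it with a constant of 16 (-0.40) or no filter on low signals. AT2G20142 and AT4G16920 were not called with time at either pH, with pH 4.5 means of 52.2 ± 7.86 and 88.8 ± 16.6 at 1 h and 71.4 ± 4.23 and 87.4 ± 18.4 at 8 h. AT1G72920, not tested, had 27.0, 12.0 and 12.6 at 1 h and 27.5, 19.5 and 24.8 at 8 h at pH 4.5, and its 6 arrays at pH 6 were all low, from 0.1692 to 7.24.

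Both AAA-type ATPase genes, which encode proteins of a family that uses ATP to remodel other proteins, rose at pH 4.5. AT3G28580 had signals of 14.4, 25.0 and 23.4 at pH 4.5 and 8.88, 4.70 and 6.64 at pH 6 at 1 h, and at 8 h of 81.2, 62.0 and 68.5 at pH 4.5 and 4.55, 0.297 and 1.89 at pH 6. Its rise at pH 4.5 had a log2 difference of 1.60 ± 0.27 (SE, adjusted p = 0.000203). All 6 arrays at pH 6 were low, and the log2 difference there was -0.83 ± 0.27 (SE, adjusted p = 0.0376). This difference was -1.46 with a constant of 1, and its call was lost with a constant of 16 (-0.32), with no filter and with quantile normalization (-0.72). It was also lost without replicate 1 or 3 of pH 6 at 1 h, replicate 2 or 3 of pH 6 at 8 h or any of the pH 4.5 arrays at 8 h, where the smallest value was -0.59. AT1G43910, of higher signal, went from 253 ± 33.4 to 627 ± 67.9 at pH 4.5, which was a log2 difference of 1.30 ± 0.12 (SE, adjusted p = 2.74e-07). At pH 6 it had 114 ± 12.7 and 104 ± 15.8 and was not called.

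Genes of the metal-handling kind included 3 with a heavy-metal-associated domain, a fold that binds metal ions in other proteins, and all 3 lie close together on chromosome 5. AT5G52760 had signals of 97.8, 135 and 120.1 at pH 4.5 and 5.27, 0.779 and 0.562 at pH 6 at 1 h, and at 8 h of 192, 173 and 121 at pH 4.5 and 2.45, 0.598 and 2.51 at pH 6. The signal was near the bottom of the scale on all 6 arrays at pH 6 and 97.8 or higher on all 6 at pH 4.5, with log2 differences of -4.29 and -4.83. Adding 4 before taking logs understates this ratio. It was called with time at neither pH.

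AT5G52670 differed in that its pH 6 signal was moderate at 1 h. Its arrays read 108, 91.6 and 168 at pH 4.5 and 55.7, 48.0 and 55.3 at pH 6 at 1 h, and at 8 h 235, 188 and 117 at pH 4.5 and 16.4, 11.6 and 6.14 at pH 6. The pH 4.5 arrays of both times overlapped, and the pH 6 arrays dropped, with a log2 difference of -1.95 ± 0.26 (SE, adjusted p = 2.52e-05). AT5G52750 was called lower at 8 h at pH 4.5, with a log2 difference of -0.53 ± 0.14 (SE, adjusted p = 0.0107), and had 122 ± 14.4 and 83.2 ± 14.2 at pH 4.5 and 23.1 ± 2.69 and 25.8 ± 1.58 at pH 6. That call was lost without replicate 3 of pH 4.5 at 1 h or replicate 2 of pH 4.5 at 8 h, where it was as small as -0.43. MTP11 (AT2G39450), a transporter that moves manganese into internal compartments, rose at pH 4.5 from 367 ± 19.1 to 489.8 ± 32.4, with a log2 difference of 0.41 ± 0.11 (SE, adjusted p = 0.00913), and had 162 ± 15.7 and 149.5 ± 21.5 at pH 6.

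Among 6 genes for glutathione transferases and redox enzymes, 3 rose and 2 fell with time at pH 4.5, and 4 fell and 0 rose at pH 6. All 6 had the larger pH difference at 8 h. GSTU22 (AT1G78340), a tau-class glutathione transferase, had signals of 95.5, 90.4 and 62.6 at pH 4.5 and 33.0, 31.9 and 33.7 at pH 6 at 1 h, and at 8 h of 258, 292 and 245 at pH 4.5 and 17.0, 22.7 and 31.6 at pH 6. Its late pH 4.5 arrays stood above all others, a log2 difference of 1.65 ± 0.17 (SE, adjusted p = 9.49e-07), while at pH 6 the difference of -0.44 ± 0.17 (SE, adjusted p = 0.0843) was not called. GSTU25 (AT1G17180), of the same class, rose from 42.4 ± 2.00 to 84.4 ± 4.28 at pH 4.5, with a log2 difference of 0.93 ± 0.17 (SE, adjusted p = 0.000408), and had 17.5 ± 5.15 and 18.4 ± 2.19 at pH 6.

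AT5G39580, a class III peroxidase, a secreted enzyme that uses hydrogen peroxide, had signals of 633, 584 and 529 at pH 4.5 and 400.4, 295 and 279 at pH 6 at 1 h, and at 8 h of 1101, 952 and 949 at pH 4.5 and 141, 145 and 125 at pH 6. The groups had moved apart in both directions by 8 h, with log2 differences of 0.78 ± 0.12 (SE, adjusted p = 9.16e-05) at pH 4.5 and -1.21 ± 0.12 (SE, adjusted p = 1.44e-06) at pH 6. AT4G13180, a short-chain dehydrogenase, had nearly equal signals at pH 4.5 at both times, 498 ± 7.40 and 454 ± 8.41, and fell at pH 6, with a log2 difference of -0.61 ± 0.10 (SE, adjusted p = 0.000422). AT4G19880, of a glutathione transferase family, had 1482 ± 236 and 1151 ± 64.6 at pH 4.5 and 771 ± 19.5 and 561 ± 24.6 at pH 6. It fell at pH 6, with a log2 difference of -0.46 ± 0.10 (SE, adjusted p = 0.0031). At pH 4.5 the log2 difference was -0.35 ± 0.10 (SE, adjusted p = 0.0136), which was not called without replicate 2 of pH 4.5 at 1 h or replicate 1 or 2 of pH 4.5 at 8 h, where it was as small as -0.23.

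The 7 enzymes of amino acid, hormone and small-molecule metabolism held the largest rise and, after EXO, the largest fall at pH 4.5 among genes with a name. There 3 rose and 2 fell, and at pH 6, 5 fell and 0 rose. AT2G41380, a methyltransferase-family gene, had signals of 28.1, 33.1 and 21.2 at pH 4.5 and 12.1, 11.3 and 10.8 at pH 6 at 1 h, and at 8 h of 290.4, 294 and 319 at pH 4.5 and 3.10, 7.12 and 5.66 at pH 6. The late pH 4.5 arrays stood about an order of magnitude above the early ones, a log2 difference of 3.30 ± 0.19 (SE, adjusted p = 2.62e-10), and the late pH 6 arrays were low, with a log2 difference of -0.76 ± 0.19 (SE, adjusted p = 0.00728) from the early ones. With a constant of 16 the difference at pH 6 was -0.37. On the scale of the selection its excess at pH 4.5 was 2.05-fold at 1 h and 32.8-fold at 8 h, and the latter depends on the added 4, since all 3 late pH 6 arrays were low.

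GAT1_2.1 (AT1G15040), a glutamine amidotransferase-like gene, had signals of 214, 262 and 296 at pH 4.5 and 83.7, 19.2 and 45.3 at pH 6 at 1 h, and at 8 h of 28.5, 30.7 and 111 at pH 4.5 and 10.0, 2.00 and 26.3 at pH 6. The spread within the last 3 of these groups was wide, and replicate 3 was the highest of its group at 8 h at either pH. It fell at pH 4.5, with a log2 difference of -2.36 ± 0.52 (SE, adjusted p = 0.00231). At pH 6 its arrays overlapped, with a log2 difference of -1.77 ± 0.52 (SE, adjusted p = 0.0211), or -1.15 with a constant of 16. That call was lost without replicate 1 or 3 of pH 6 at 1 h or replicate 2 of pH 6 at 8 h, where the difference was as small as -1.18, and with no filter or no intensity trend. ASPGB1 (AT3G16150), an asparaginase that releases ammonium from asparagine, had 272 ± 53.3 and 260.0 ± 86.4 at pH 4.5 and 80.6 ± 17.9 and 58.6 ± 11.1 at pH 6, and was not called with time.

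AT3G54150, another methyltransferase-family gene, rose at pH 4.5 from 126 ± 14.1 to 189 ± 16.5, with a log2 difference of 0.57 ± 0.12 (SE, adjusted p = 0.00188), and fell at pH 6 from 45.4 ± 3.93 to 19.6 ± 0.905, with a log2 difference of -1.07 ± 0.12 (SE, adjusted p = 5.84e-06). SUFE2 (AT1G67810), which activates the cysteine desulfurase of iron-sulfur cluster assembly in plastids, went from 88.4 ± 11.4 to 169 ± 10.1 at pH 4.5 and from 43.5 ± 7.66 to 22.01 ± 5.202 at pH 6. The log2 differences with time were 0.91 ± 0.16 (SE, adjusted p = 0.000225) and -0.88 ± 0.16 (SE, adjusted p = 0.000552).

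All 3 protease genes fell with time at pH 6, and at pH 4.5, 1 rose and 1 fell. AT3G19390, a granulin-type cysteine protease, had 1502, 1621 and 1263 at pH 4.5 and 780.4, 795 and 785 at pH 6 at 1 h, and at 8 h 1239, 1344 and 1443 at pH 4.5 and 499, 534 and 580.2 at pH 6. Its pH 4.5 arrays overlapped between times and its pH 6 arrays fell with a log2 difference of -0.55 ± 0.10 (SE, adjusted p = 0.000612). AT3G59080, an aspartyl protease, fell at both pH values, with log2 differences of -0.69 ± 0.12 (SE, adjusted p = 0.000223) and -0.82 ± 0.12 (SE, adjusted p = 6.52e-05). AT1G66180, also an aspartyl protease, fell at pH 6 from 248 ± 19.0 to 164 ± 7.52, with a log2 difference of -0.59 ± 0.11 (SE, adjusted p = 0.00113). At pH 4.5 its log2 difference was small, 0.34 ± 0.11 (SE, adjusted p = 0.0381). It was not called with arrays centred on the median (0.31), with no filter, or with no intensity trend, nor without replicate 1 or 3 of pH 4.5 at 1 h or replicate 2 or 3 of pH 4.5 at 8 h, where it was as small as 0.22.

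Of 4 genes for a lectin, a thaumatin-like protein and leucine-rich repeat proteins, 1 rose and 2 fell at pH 4.5, and 2 fell at pH 6. AT5G18470, a mannose-binding lectin, had signals of 255, 311 and 254 at pH 4.5 and 147, 104 and 99.2 at pH 6 at 1 h, and at 8 h of 503, 487 and 528 at pH 4.5 and 57.5, 49.8 and 54.9 at pH 6. No array of one group overlapped another, and the difference with time was 0.89 ± 0.13 (SE, adjusted p = 4.7e-05) at pH 4.5 and -1.04 ± 0.13 (SE, adjusted p = 1.59e-05) at pH 6. AT4G36010, the thaumatin-like gene, fell at pH 4.5 from 179.7 ± 11.5 to 126 ± 11.7, with a log2 difference of -0.50 ± 0.13 (SE, adjusted p = 0.00737), and had 55.3 ± 9.78 and 59.0 ± 4.25 at pH 6. AT1G33590, a leucine-rich repeat protein, fell at pH 6 from 274 ± 22.9 to 143 ± 14.5, with a log2 difference of -0.92 ± 0.10 (SE, adjusted p = 2.92e-06). At pH 4.5 its log2 difference of -0.32 ± 0.10 (SE, adjusted p = 0.0218) was not called without replicate 1 or 3 of pH 4.5 at 1 h or replicate 1 or 2 of pH 4.5 at 8 h, where it was as small as -0.28. AT2G34930, also with leucine-rich repeats, had 63.6 ± 13.8 and 41.1 ± 3.70 at pH 4.5, and neither time comparison called it.

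Membrane-organising proteins and kinases made up 8 genes, with 1 higher and 2 lower at 8 h at pH 4.5, and 0 higher and 3 lower at pH 6. AT1G69840, of the family of hypersensitive-induced reaction proteins that sit in membrane domains, had signals of 437, 420.0 and 440.0 at pH 4.5 and 205, 223 and 209.6 at pH 6 at 1 h, and at 8 h of 604, 529 and 580.3 at pH 4.5 and 102, 101 and 98.9 at pH 6. Replicates were tight, and the groups parted with time with log2 differences of 0.40 ± 0.09 (SE, adjusted p = 0.00197) at pH 4.5 and -1.05 ± 0.09 (SE, adjusted p = 1.1e-07) at pH 6. AT5G64870, a flotillin-like gene, had 32.1 ± 8.502 and 30.9 ± 6.86 at pH 4.5 and low signals of 5.01 ± 3.49 and 6.06 ± 3.56 at pH 6, with no call for time. TET9 (AT4G30430), a tetraspanin, had 36.1 ± 4.05 and 23.7 ± 3.34 at pH 4.5 and 10.2 ± 0.592 and 6.30 ± 4.11 at pH 6, likewise with no call. AT2G24600, an ankyrin-repeat protein, fell at both pH values, with log2 differences of -0.72 ± 0.13 (SE, adjusted p = 0.000517) and -1.28 ± 0.13 (SE, adjusted p = 2.23e-06).

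Nuclear regulators numbered 4, and at pH 6, 3 of them fell with time, while at pH 4.5, 1 fell and 0 rose. STZ (AT1G27730), a C2H2 zinc-finger transcription factor also known from salt and cold responses, had signals of 379.7, 401 and 428 at pH 4.5 and 189, 124 and 162 at pH 6 at 1 h, and at 8 h of 224, 191 and 200.5 at pH 4.5 and 59.1, 59.0 and 74.1 at pH 6. Both pH groups moved down, with log2 differences of -0.96 ± 0.13 (SE, adjusted p = 2.25e-05) at pH 4.5 and -1.24 ± 0.13 (SE, adjusted p = 2.73e-06) at pH 6, so the excess at pH 4.5 was 2.51-fold at 1 h and 3.07-fold at 8 h. AT2G22880, a VQ-motif gene of a family that partners WRKY transcription factors, kept 50.7 ± 12.3 and 57.2 ± 6.57 at pH 4.5. At pH 6 its arrays read 29.2, 6.62 and 18.2 at 1 h and 0.590, 2.31 and 3.66 at 8 h, a wide spread followed by low signals. The log2 difference at pH 6 was -1.73 ± 0.31 (SE, adjusted p = 0.000673), or -0.85 with a constant of 16.

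PRN (AT3G59220), the pirin that interacts with a G-protein alpha subunit, had 277 ± 51.9 and 259 ± 12.3 at pH 4.5, with no call. Its log2 difference at pH 6 was -0.48 ± 0.14 (SE, adjusted p = 0.0184), which was not called without replicate 1 of pH 6 at 1 h or replicate 1 of pH 6 at 8 h, where it was as small as -0.36. AT5G01380, a trihelix transcription factor, had pH 4.5 signals of 24.3, 21.2 and 22.1 at 1 h and 19.3, 24.9 and 19.3 at 8 h. Its pH 6 signals were 19.9, 6.86 and 1.27 at 1 h and 7.02, 1.52 and 1.91 at 8 h, among which replicate 1 at 1 h lay close to the pH 4.5 arrays. RING1 (AT5G10380), a RING-type ubiquitin ligase, had 46.3 ± 7.26 and 57.8 ± 9.61 at pH 4.5 and fell at pH 6 from 19.0 ± 0.361 to 10.00 ± 2.01, with a log2 difference of -0.73 ± 0.18 (SE, adjusted p = 0.00629), or -0.43 with a constant of 16. AT1G22510, also of the RING type, had pH differences of about equal size at both times, -0.96 and -1.02, and no call with time.

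**Figure D5:**
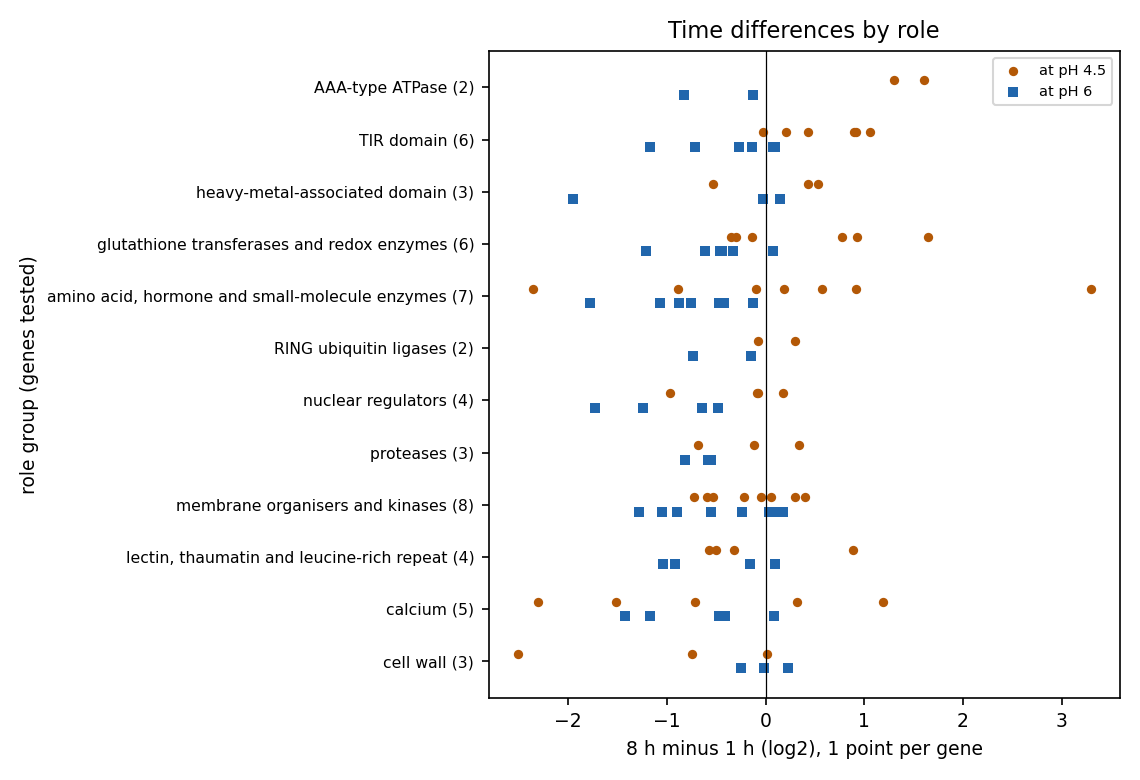
Log2 difference between 8 h and 1 h for each tested gene (horizontal axis, 1 point per gene) at pH 4.5 (circles) and at pH 6 (squares), by role group (vertical axis, number of genes tested in brackets). Circles of the AAA-type ATPase group lie above 1, those of the cell wall and calcium groups reach below -2, and most squares lie below 0.

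Several genes given no role here had large values too. AT5G22530 rose at pH 4.5, with a log2 difference of 0.76 ± 0.20 (SE, adjusted p = 0.00971) and arrays of 40.2, 52.7 and 61.1 at 1 h and 98.3, 71.7 and 99.0 at 8 h, and had low to moderate signals at pH 6, 13.3 ± 3.41 and 6.51 ± 1.66. The rise was not called without replicate 1 of pH 4.5 at 1 h or at 8 h, where it was as small as 0.61. Its difference at pH 6, -0.72 ± 0.20 (SE, adjusted p = 0.0178), was not called without replicate 1 of pH 6 at 1 h or at 8 h (as small as -0.56) or with a constant of 16 (-0.38).

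AT4G37240, AT4G36500 and AT1G25400 were highest at pH 4.5 after 1 h. AT4G37240 had 181 ± 20.1 at 1 h and 56.8 ± 9.83 at 8 h at pH 4.5, against 34.0 ± 0.325 and 25.1 ± 5.70 at pH 6, and fell at pH 4.5, with a log2 difference of -1.61 ± 0.16 (SE, adjusted p = 3.31e-07). AT4G36500 fell at both pH values, with log2 differences of -1.48 ± 0.12 (SE, adjusted p = 2.2e-08) and -1.13 ± 0.12 (SE, adjusted p = 1.94e-06), as did AT1G25400, with -1.35 ± 0.19 (SE, adjusted p = 3.35e-05) and -1.40 ± 0.19 (SE, adjusted p = 3.99e-05). AT2G32020, of an acetyltransferase family, fell with log2 differences of -1.23 ± 0.12 (SE, adjusted p = 4.48e-07) at pH 4.5 and -0.50 ± 0.12 (SE, adjusted p = 0.00709) at pH 6. AT4G01870 was not called at pH 4.5 and fell at pH 6, with a log2 difference of -1.18 ± 0.15 (SE, adjusted p = 1.95e-05). AT2G28690 was the 1 gene with a name that rose at pH 6, from 15.8, 18.2 and 14.1 to 38.4, 25.6 and 28.1, with a log2 difference of 0.78 ± 0.19 (SE, adjusted p = 0.00771). It rose at pH 4.5 as well, from 52.5, 31.9 and 37.8 to 73.7, 90.6 and 61.9, with a log2 difference of 0.84 ± 0.19 (SE, adjusted p = 0.00344). Its excess at pH 4.5 was 2.23-fold at 1 h and 2.29-fold at 8 h, so both pH groups moved up together.

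Some of the largest values belonged to probe sets that are listed under no gene, and 4 of them were singled out after their values were seen. Probe set 247925_at had 2539.9, 2469 and 2091 at pH 4.5 and 51.4, 45.4 and 43.5 at pH 6 at 1 h, and at 8 h 432, 365 and 451 at pH 4.5 and 45.4, 38.1 and 26.9 at pH 6. This was the largest difference of the set at 1 h. Probe set 250670_at had 336, 317 and 309 at pH 4.5 and 89.6, 83.8 and 53.8 at pH 6 at 1 h, and at 8 h 1332, 1292 and 1365 at pH 4.5 and 12.9, 15.1 and 12.3 at pH 6. This was the largest at 8 h. Their courses were opposite, the first with its peak at pH 4.5 after 1 h and the other with its peak at pH 4.5 after 8 h and its lowest values at pH 6 after 8 h. Probe set 262374_s_at, which may detect several related transcripts, went from 34.5 ± 1.87 to 251 ± 29.8 at pH 4.5, and had 13.6 ± 2.25 and 2.31 ± 1.55 at pH 6. Probe set 248164_at went from 342 ± 6.85 to 139 ± 6.81 at pH 4.5, and had 43.9 ± 4.72 and 23.5 ± 4.28 at pH 6.

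By their order in the RefSeq annotation, some of the genes are neighbours. Of 78 genes that could be placed, 12 lay within 10 gene steps of another, in 9 pairs. The matching share for other genes on the array was not computed, so the count does not show whether the selected genes cluster. AT5G52750 and AT5G52760 are adjacent on chromosome 5, AT5G52790 follows 3 genes further on, and AT5G52670 lies 8 steps before AT5G52750. Among these genes, AT5G52750 had the larger pH difference at 1 h (-2.21 against -1.55) and AT5G52670 at 8 h (-3.58 against -1.15). These are the differences that the selection used. The other pairs were AT1G72920 with AT1G72940, both TIR-domain genes, AT2G32140 with AT2G32190, AT4G37240 with AT4G37295, and AT5G39580 with AT5G39670. Probe sequences were not used here, and cross-hybridisation between related neighbours was not tested.

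Lists of genes with known roles in acid tolerance and in responses to microbial elicitors had few members with a named probe set. Others may be among the 8730 probe sets listed under no gene, of which 65 were selected. The counts here cover named probe sets only. Of 15 genes listed for low-pH tolerance under the transcription factor STOP1, 2 had a named probe set and 0 of these were selected. AT1G51340, a citrate-transporter family gene, had 14.6 ± 1.75 and 43.3 ± 4.61 at pH 4.5, against 12.6 ± 3.67 and 13.8 ± 7.61 at pH 6, and AT5G01720 had 27.8 ± 5.47 and 60.5 ± 7.61 against 62.7 ± 6.91 and 57.5 ± 7.51. Of 44 elicitor-responsive genes, 7 had a named probe set, and of these STZ alone was selected. With time 1 of the 7 rose and 2 fell at pH 4.5, and at pH 6, 6 fell and the log2 difference of the other was also below 0. Over all probe sets tested, 12.5% rose and 11.1% fell at pH 4.5, and 10.6% fell at pH 6. Whether the 7, a small part of the 44 listed, depart from these shares was not tested. WRKY6 (AT1G62300), a transcription factor of that list that was not selected, had 165 ± 19.8 and 176 ± 13.2 at pH 4.5 and 103 ± 6.08 and 67.3 ± 6.28 at pH 6. WRKY53 (AT4G23810) was higher at pH 6 at 1 h, with 68.8 ± 6.11 at pH 4.5 and 158 ± 13.0 at pH 6, and lower at pH 6 at 8 h, with 128 ± 10.9 at pH 4.5 and 87.1 ± 6.38 at pH 6. Its log2 differences, pH 6 minus pH 4.5, were 1.15 ± 0.11 (SE, limma adjusted p = 8.11e-07) and -0.54 ± 0.11 (SE, limma adjusted p = 0.00131).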

How the data were processed

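The deposited values are linear signal intensities. The submitters' processing notes name MAS5 and GCOS for them, with no version. To each value 3.92, or 10% of the median signal, was added before taking log2. Array controls and probe sets whose mean log2 value was under the 30th percentile (a signal of 10.4) were left out, and 15922 were tested. A model with a mean for each group was fitted to the 12 arrays (limma 3.58.1, R 4.3.3, with an intensity trend and 8 residual degrees of freedom). P-values are two-sided and adjusted by Benjamini-Hochberg at 0.05. Python 3.11.15 with pandas 2.3.3, numpy 2.4.6 and matplotlib 3.10.9 did the rest. The median standard error of a time difference was 0.14. Precision is limited by the number of arrays. In simulated data the test recovered 33% of log2 differences of 0.5 in either time comparison, and 75% (pH 4.5) and 81% (pH 6) of differences of 1. There, only 100 of the 15922 probe sets were changed at each size. In the data 3761 were called with time at pH 4.5 and 3094 at pH 6. The adjusted threshold depends on this share, so the recovery in the data may differ.

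The selected genes, the lists and the tests were chosen with earlier results of these data known. Genes were named by rule: the 12 with the largest summed pH differences, the 8 largest called time differences in each direction and at each pH whose arrays did not overlap, the 5 brightest, and those whose pH difference changed most and least with time. Examples for the role groups were added after their values were seen. Names came from the RefSeq table of TAIR10.1, which gave a locus code alone for 67 of the 79 genes. It holds no descriptions, so lists defined by words found few genes. Genome coordinates were used only to order genes and find neighbours, and sequences and promoter motifs were not analysed here. Alternatives were other constants, no filter on low signals, other array scaling, no intensity trend, the replicate number as a block, and leaving out each array.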

Additional observations from a re-analysis of the deposited data

Results flagged for a closer look

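For 11 of the selected genes that have a name, limma called both time differences, every array at pH 4.5 was higher at 8 h than at 1 h and every array at pH 6 was lower at 8 h than at 1 h, so that time went with opposite shifts at the 2 pH values. The difference between the shifts was not tested, because it is made of the pH comparisons that chose the genes. Each pair of log2 differences, 8 h minus 1 h, is given with pH 4.5 first. For the methyltransferase-family gene AT2G41380 they were 3.30 and -0.76, and for AT3G54150 of the same kind 0.57 and -1.07. All pH 6 arrays of AT2G41380 were close to or under 10.4, a low signal, which limits what its pH 6 value shows. The AAA-type ATPase gene AT3G28580 had 1.60 and -0.83, but all its pH 6 arrays were low, and the latter was -0.32 and not called with a constant of 16. The EF-hand gene AT5G39670 had 1.19 and -1.17. The TIR-domain gene AT1G57630 had 0.92 and -1.17, the lectin gene AT5G18470 had 0.89 and -1.04, and the peroxidase gene AT5G39580 had 0.78 and -1.21. SUFE2 had 0.91 and -0.88, AT5G22530 had 0.76 and -0.72, AT1G69840 had 0.40 and -1.05, and the aspartyl protease gene AT1G66180 had 0.34 and -0.59. The pH 6 values of AT2G41380 (-0.37), AT1G57630 (-0.68) and AT5G22530 (-0.38, not called) also shrank with a constant of 16. Both calls of AT5G22530, the pH 4.5 call of AT1G66180 and the pH 6 call of AT3G28580 were lost without single arrays. With probe sets that have no gene name, 14 of 142 showed this pattern (9.86%, against 1.58% of all probe sets tested) and 0 the opposite one (against 1.07%), and the part of the selection in these shares cannot be told apart.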

How the results depend on the processing

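The size of the selection depended on its limit, with 235 probe sets at a log2 difference of -0.6 and 92 at -1. It was 133 with a highest group mean of 40, 104 with a constant of 16 and 163 with arrays divided by their medians, and 135 to 164 when any 1 array was left out, of which 127 to 144 were shared with the 145. The numbers of selected probe sets called with time stayed within 1.5 times under every alternative run. Leaving out 1 array gave 29 to 35 higher and 44 to 50 lower at pH 4.5, and 3 to 4 higher and 65 to 78 lower at pH 6. Deviations of same-numbered arrays of different groups had correlations of -0.09 to 0.17 over 18 pairs, 5 of them above 0.1. Arrays with other numbers had -0.19 to 0.21, and 6 of 12 arrays were closest to their own number. The same-numbered pairs of replicate 2 were all positive, from 0.03 to 0.17, and those of replicates 1 and 3 had both signs. Whether the numbers pair the samples cannot be told from these values. With the replicate number as a block, 34 were higher and 50 lower at pH 4.5, and 3 higher and 76 lower at pH 6. Of the 68 calls of named genes, 56 held under all 8 kinds of alternative and none changed sign. The other 12 are described beside their values above, and the cause was not tested. Signals under 10.4, which 15 selected probe sets had at pH 6 after 1 h and 25 after 8 h, limit what a log2 difference shows.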
